A study of Homo sapiens with 6 samples.

Results

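The integrated stress response genes ATF4, CEBPB, ATF3, DDIT3, TRIB3, PPP1R15A, ASNS, CHAC1 and GDF15 were examined for H3K4me3 and H3K27me3 in the human lung cancer line H1299 (non-small cell type), grown with 5 mM metformin or with no treatment (control). The 9 genes have 10 transcription start sites on hg19, since ATF3 has an upstream and a downstream start. Members were the peak intervals lying within 5 kb of a start site, which gave 69 of the 275570 intervals in the 4 lists. For H3K4me3 there were 37 intervals in the metformin list and 28 in the control list, and for H3K27me3 there were 2 in each. Chromatin immunoprecipitation followed by sequencing had been done once for each mark and condition, on cross-linked chromatin cut with micrococcal nuclease from cells at passages 10 to 15, and the length of treatment is not given in the sources used here. With 1 library per mark and condition no test between conditions could be made, so every difference given is between single libraries and has no replicate check.

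In the integrated stress response, kinases that sense amino acid shortage, misfolded protein, haem shortage, double-stranded RNA or mitochondrial stress phosphorylate the translation factor eIF2α. General translation is then lowered while ATF4 mRNA is translated more, and ATF4 with partners of the C/EBP family switches on genes of amino acid supply, redox balance and cell death. Metformin acts on complex I of the respiratory chain, among other targets, and inhibition of the chain is known to start this response in many cell types. H3K4me3 marks promoters that are active or ready for use and usually flanks a nucleosome-poor gap at the start site, while H3K27me3 is the mark laid down by Polycomb repressive complex 2.

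Each peak list gives an interval and 1 deposited value, read as a −log10 q (the strength of evidence for a peak, not a signal level). Covered length below means the bases within 5 kb to either side of the start site that lie in an interval. The metformin list held 53454 H3K4me3 intervals over 55.2 Mb and the control list 50585 over 49.4 Mb, with median values of 6.31 and 5.73, so the metformin list was longer and had the higher median. Depth is unknown, and its part in the differences below was not tested. As a background, the same measures were taken in 19017 windows of the same length centred on every H3K4me3 site of 1 kb or more after the lists were joined. Those windows are centred on the mark and not on start sites. Positions of the other pathway genes on hg19 were not used here.

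Promoter sequences are shown for the members whose start site pattern or sequence stands out in the results: DDIT3 with the highest values, ASNS and CHAC1 with an ATF4-type element, and GDF15 and PPP1R15A with the mark almost wholly downstream of the start. Each run holds the 250 bases before the first start that RefSeq lists, 5′ to 3′ on the gene's strand, from GRCh38.p14, which is a later build than the hg19 of the peak lists. Positions were not converted between the builds, so the RefSeq start may lie some bases from the one used for the peaks. Capitals mark matches to TGATGNAAN (the core of the C/EBP-ATF response element), TGACGTCA (cAMP response element), CCAAT and TATAAA, on either strand. The GRCh38.p14 intervals are chr12:57520515-57520764 on the minus strand, chr7:97872409-97872658 on the minus strand, chr15:40953221-40953470 on the plus strand, chr19:18385908-18386157 on the plus strand and chr19:48872171-48872420 on the plus strand.
DDIT3: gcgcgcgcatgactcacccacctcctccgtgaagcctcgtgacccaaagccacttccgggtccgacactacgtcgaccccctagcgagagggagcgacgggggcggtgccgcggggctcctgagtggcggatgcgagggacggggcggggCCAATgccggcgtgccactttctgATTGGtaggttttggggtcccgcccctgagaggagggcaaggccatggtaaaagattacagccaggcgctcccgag
ASNS: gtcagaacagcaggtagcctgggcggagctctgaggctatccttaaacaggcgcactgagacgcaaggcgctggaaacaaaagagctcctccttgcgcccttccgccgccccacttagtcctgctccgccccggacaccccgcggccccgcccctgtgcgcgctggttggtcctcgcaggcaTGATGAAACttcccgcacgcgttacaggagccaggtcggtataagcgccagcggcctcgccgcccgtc
CHAC1: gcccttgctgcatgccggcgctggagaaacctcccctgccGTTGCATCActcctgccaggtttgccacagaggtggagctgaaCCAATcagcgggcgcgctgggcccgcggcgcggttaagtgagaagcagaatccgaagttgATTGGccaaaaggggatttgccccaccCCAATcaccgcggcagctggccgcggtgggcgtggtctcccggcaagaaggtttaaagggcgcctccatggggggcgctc
GDF15: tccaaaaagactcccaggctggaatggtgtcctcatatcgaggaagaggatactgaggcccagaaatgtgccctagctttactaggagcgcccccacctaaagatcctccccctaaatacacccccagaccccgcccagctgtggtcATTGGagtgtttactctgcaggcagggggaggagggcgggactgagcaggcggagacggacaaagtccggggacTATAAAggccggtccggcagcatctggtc
PPP1R15A: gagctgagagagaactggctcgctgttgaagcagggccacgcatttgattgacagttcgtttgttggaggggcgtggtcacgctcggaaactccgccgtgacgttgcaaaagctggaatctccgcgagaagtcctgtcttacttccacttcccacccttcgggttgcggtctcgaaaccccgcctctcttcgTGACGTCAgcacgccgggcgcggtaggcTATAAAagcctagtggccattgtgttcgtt

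Among the 8 members with a single start in the peak analysis, each taken at the first start RefSeq lists, the core TGATGNAAN was found in 2 promoters, at 68 to 60 bases before the start of ASNS and, on the opposite strand, at 210 to 202 bases before that of CHAC1. It occurs in 3.18% of 27305 RefSeq promoter windows of this length and in 2 of 20 other pathway genes with a sequence (25 were listed). TGACGTCA was found in PPP1R15A alone of the 8, 58 to 51 bases before the start, and in 1.77% of all windows. TATAAA was present in ATF4, GDF15 and PPP1R15A, 22 to 30 bases before the start, against 11.1% of all windows and 1 of the 20 pathway genes. The GC box GGGCGG was present in 6 of 8 (42.3% of all windows) and CCAAT in 3 of 8 (33.0% of all windows). The form TGATGCAAT, which is contained in the core pattern, had no match in the 8 (0.245% of all windows). RefSeq lists 14 starts for the 8 genes, and over all of them the counts of TGATGNAAN, TGACGTCA and GGGCGG were unchanged, while CCAAT and TATAAA each had a match in CEBPB as well (4 of 8). A match says only that the letters are there. ATF3 is left out of these counts: its 2 starts lie 43.3 kb apart in the peak analysis and 49.6 kb apart in the RefSeq table, so they could not all be paired. Whether the listed starts of the other genes are those of the peak analysis was not checked.

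The first-listed promoters of 7 of these 8 members held 19 to 33 CpG dinucleotides in 250 bases, against a median of 11 over all windows and 21 in the 20 other pathway genes. Of all windows, 65.7% had fewer than the 19 of CHAC1 and 92.1% fewer than the 33 of TRIB3, so many other promoters reach such counts. GDF15 had 9, at an observed over expected ratio of 0.42, where TRIB3 had the most with 33. GDF15 was also the member with the lowest H3K4me3 values among those marked in both lists.

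H3K4me3 was called near all 10 start sites in the metformin list and near 9 of 10 in the control list, the upstream ATF3 start being the exception. The share of all start sites with the mark was not measured, so this is a description of these genes. Within 5 kb, covered length at the 9 sites marked in both lists ran from 2885 bp (GDF15) to 7715 bp (DDIT3) in metformin cells, and from 2266 bp (GDF15) to 7370 bp (DDIT3) in control cells. The sum was 42.6 kb in metformin cells and 37.8 kb in control cells, a ratio of 1.13, and the median ratio over the 9 sites was 1.05 against 1.10 over all windows. Metformin covered more at 7 of the 9 sites, and 68.0% of all windows did so (66.6% of those whose covered length lay in the members' range). A ratio of 1.2 or more was seen at 3 of 9 (TRIB3, CHAC1 and GDF15), against 34.7% of all windows, and 29.1% of the 13672 windows of like covered length. A ratio of 1/1.2 or less was seen at 0 of 9, against 8.22% of all windows and 6.47% of those of like length. Within 10 kb and at values of 5 or more ASNS passed this limit, at 0.75 and 0.70. Within 5 kb, the only window for which the background was taken, the members thus lay near the background of the list as a whole. No shift of the set beyond it can be read there.

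**Figure D1:**
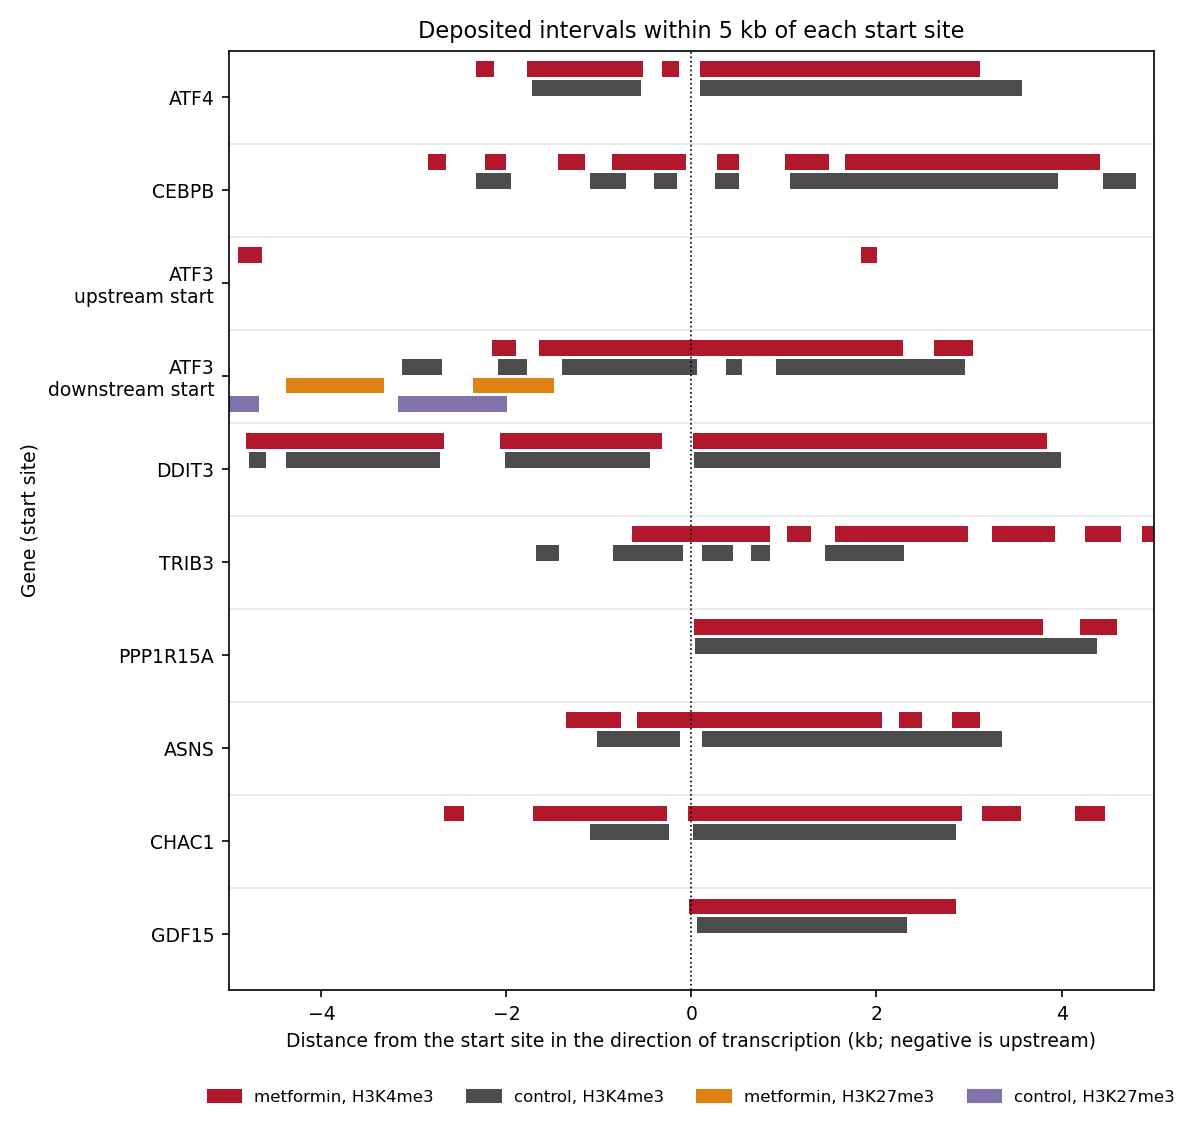
Deposited intervals within 5 kb of each start site, drawn along the direction of transcription (x axis, kb from the start, negative upstream; each bar is 1 interval cut at the window's edge). Each gene has a lane for metformin H3K4me3, control H3K4me3, metformin H3K27me3 and control H3K27me3. The downstream ATF3 start is the single site with H3K27me3, and PPP1R15A and GDF15 have no H3K4me3 further than 24 bp upstream.

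In the order of genes by highest deposited value, only the first and the last of the 9 sites marked in both lists were compared. They were the same in each list, while the next to the top differed, PPP1R15A (39.6) in metformin and CEBPB (36.7) in control cells. DDIT3 had the highest value, 68.9 in metformin and 54.8 in control cells, which placed it in the top 1.73% of the metformin list and the top 2.31% of the control list. GDF15 had the lowest of those marked in both, 5.95 in metformin and 4.67 in control cells, near the middle of each list (top 50.9% and top 57.3%). Ranked within its own list, the highest value stood nearer the top in metformin cells at 5 of 9 sites (ATF4, DDIT3, TRIB3, GDF15 and the downstream ATF3 start), and 57.9% of all windows showed this. Without replicates, neighbours in this order cannot be told apart.

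**Figure D2:**
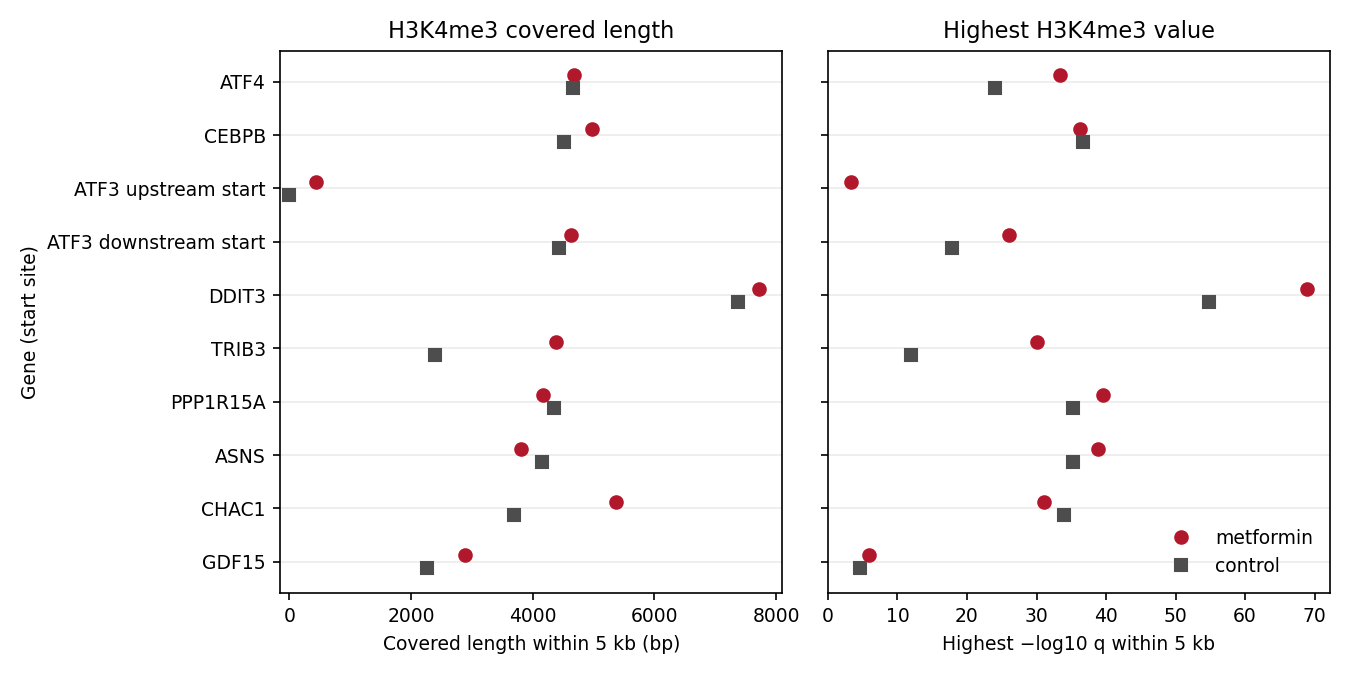
H3K4me3 covered length within 5 kb (left, bp) and the highest deposited value there (right, −log10 q) at each start site. Each point is 1 library, circles for metformin and squares for control, with no error. The upstream ATF3 start has no control interval and so no control value. TRIB3 and CHAC1 are furthest apart in covered length, with 4385 against 2400 bp and 5376 against 3694 bp.

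ATF4, the transcription factor at the centre of the response, lies at position 39916569 of chromosome 22 on the plus strand. Its covered length was 4674 bp in metformin and 4655 bp in control cells. The main interval began 94 bp after the start in both lists, and reached 3121 bp downstream in metformin and 3572 bp in control cells, with highest values of 33.4 and 24.1. Upstream, an interval of 1260 bp in metformin cells matched one of 1176 bp in control cells. A short interval of 191 bp (value 6.61), 129 bp before the start, was in the metformin list alone, as was one of 195 bp (1.65) further upstream. Of all metformin intervals under 500 bp, 40.0% had a control partner.

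CEBPB encodes a bZIP factor that pairs with ATF4 and whose own gene is stress-inducible (chromosome 20, position 48807120, plus strand). Its mark was broken into 7 intervals in metformin and 6 in control cells, covering 4972 and 4517 bp. The highest values were 36.2 in metformin and 36.7 in control cells, both in an interval that starts more than 1 kb downstream and is 2756 bp long in metformin and 2896 bp in control cells. Next to the start, the metformin list held an upstream interval of 800 bp with a value of 22.1. The control list held one of 253 bp there, with a value of 17.1, and a further interval of 385 bp.

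ATF3, a bZIP factor induced by ATF4, has 2 starts on the plus strand of chromosome 1. At the upstream start, position 212738676, the metformin list held 2 short intervals of 265 and 175 bp with values of 3.37 and 1.65, the nearer one 1828 bp downstream. The control list held none within 5 kb. Both metformin intervals lay in the lower part of their list by value (top 75.0% and top 97.1%), and 40.0% of all metformin intervals under 500 bp had a control partner. At the downstream start, position 212781970, covered length was 4625 bp in metformin and 4431 bp in control cells. There 1 metformin interval of 3936 bp (value 26.0) ran across the start from 1650 bp upstream to 2285 bp downstream. It was overlapped by 3 control intervals, of 1467, 167 and 2049 bp, the highest with a value of 17.8. The one of 2049 bp ran on to 2960 bp downstream, past the end of the metformin interval. The ratio, 1.04 within 5 kb, was 1.28 within 2 kb.

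DDIT3 encodes CHOP, the bZIP factor tied to stress-induced cell death (chromosome 12, position 57914300, minus strand). It had the longest coverage of the members, 7715 bp in metformin and 7370 bp in control cells. The main interval covered the gene body from 14 bp after the start in metformin and 29 bp after it in control cells, and was 3826 and 3968 bp long. Upstream there were intervals of 1751 bp (value 28.0) and 2138 bp (42.3) in metformin cells. The control counterparts were 1566 bp (16.9) and 1659 bp (46.4), with a further one of 177 bp. MBD6, which encodes a methyl-CpG-binding-domain protein, is the next coding gene on that side and lies on the opposite strand, so the outer interval may belong to either gene. Which one was not tested.

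TRIB3 encodes a pseudokinase that is induced by ATF4 and CHOP and dampens their activity (chromosome 20, position 361308, plus strand). It showed the largest ratio, 4385 bp in metformin and 2400 bp in control cells (1.83), and 2.46% of the windows of like length had a ratio as high. The ratio was 1.05 within 2 kb of the start and 3.65 at values of 5 or more. Across the start, metformin cells had 1 interval of 1492 bp (value 18.5). Control cells had 3 intervals that overlapped it, of 761, 327 and 208 bp with values of 4.85, 2.21 and 8.97.

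Further downstream of the TRIB3 start, 1 interval of 1434 bp reached a value of 30.0 in metformin cells, and its control partner of 853 bp reached 12.0. Beyond it the metformin list held intervals of 682, 387 and 217 bp, with values of 6.21, 3.0 and 2.48, that the control list did not, and another metformin-only interval of 263 bp lay before it. The difference therefore lay on the downstream side. Downstream coverage was 3743 bp in metformin and 1388 bp in control cells, and upstream coverage was 642 and 1012 bp. The ratio depends on the window and on the weak intervals: it was 1.05 within 2 kb and 3.65 with intervals of a value of 5 or more.

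PPP1R15A encodes GADD34, the phosphatase subunit that reverses eIF2α phosphorylation (chromosome 19, position 49375649, plus strand). Its mark lay wholly downstream, from 24 bp after the start in metformin and 38 bp after it in control cells. The interval was 3777 bp long with a value of 39.6 in metformin cells, against 4345 bp and 35.2 in control cells, with 13 sub-peaks in each. Covered length was 4172 bp in metformin and 4345 bp in control cells, and no H3K4me3 lay within 5 kb upstream in either list.

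ASNS encodes asparagine synthetase, a classical ATF4 target (chromosome 7, position 97501854, minus strand). Covered length was 3800 bp in metformin and 4153 bp in control cells, the lowest ratio of the members at 0.92. In metformin cells 1 interval of 2644 bp (value 38.8) spanned the start. In control cells the start lay in a gap between intervals of 3250 bp (35.2) downstream and 903 bp (17.8) upstream. The ratio was 1.14 within 2 kb, 0.75 within 10 kb and 0.70 with intervals of a value of 5 or more, so its direction depends on the window.

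CHAC1 encodes a glutathione-degrading enzyme induced through ATF4 (chromosome 15, position 41245636, plus strand). It covered 5376 bp in metformin and 3694 bp in control cells (ratio 1.46), and 9.08% of windows of like length had a ratio as high. The main interval was alike in both, 2963 bp with a value of 31.1 in metformin and 2843 bp with 34.0 in control cells. The difference came from a longer upstream interval, 1444 bp in metformin and 851 bp in control cells, and from 3 short intervals of 214, 428 and 327 bp in the metformin list alone.

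GDF15 encodes a secreted stress cytokine whose blood level is known to be raised in people taking metformin (chromosome 19, position 18496968, plus strand). It carried 1 interval in each list, 2885 bp in metformin and 2266 bp in control cells (ratio 1.27). All of the control interval lay inside the metformin one. These intervals were wide for their low values: wider than 91.8% of the metformin list and 88.4% of the control list. Within 2 kb the ratio was 1.04, and the control value of 4.67 lies under the stricter limit of 5.

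The mark was longer downstream than upstream of the start at 8 of 9 sites in metformin and 9 of 9 in control cells. DDIT3 in metformin cells, with 3889 bp upstream and 3826 bp downstream, was the exception. How often this holds at other promoters was not measured. Next to the start the lists differed in whether an interval crossed it. The start lay inside an interval at 5 sites in metformin cells (TRIB3, ASNS, CHAC1, GDF15 and the downstream ATF3 start), and at 1 in control cells (the downstream ATF3 start). For CHAC1 and GDF15 this reflects small shifts of an edge, by 62 and 85 bp. The share of other start sites that lie inside an interval in each list was not measured. In control cells 6 starts lay in a gap between flanking intervals, of 209 bp (TRIB3) to 642 bp (ATF4). In metformin cells 3 did, with gaps of 222 bp at ATF4, 336 bp at DDIT3 and 340 bp at CEBPB.

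Of the 6 control gaps, 2 (TRIB3 and ASNS) were spanned by 1 metformin interval, and of the 3 metformin gaps 0 were spanned by a control interval. Over the whole lists, 32.4% of 23970 control gaps of up to 700 bp were spanned by a metformin interval and 18.2% of 26102 metformin gaps by a control interval, a limit chosen after seeing these values. The counts for the members lie near those shares. With intervals within 1 kb merged, 8 starts in metformin and 7 in control cells lay inside an interval.

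**Figure D3:**
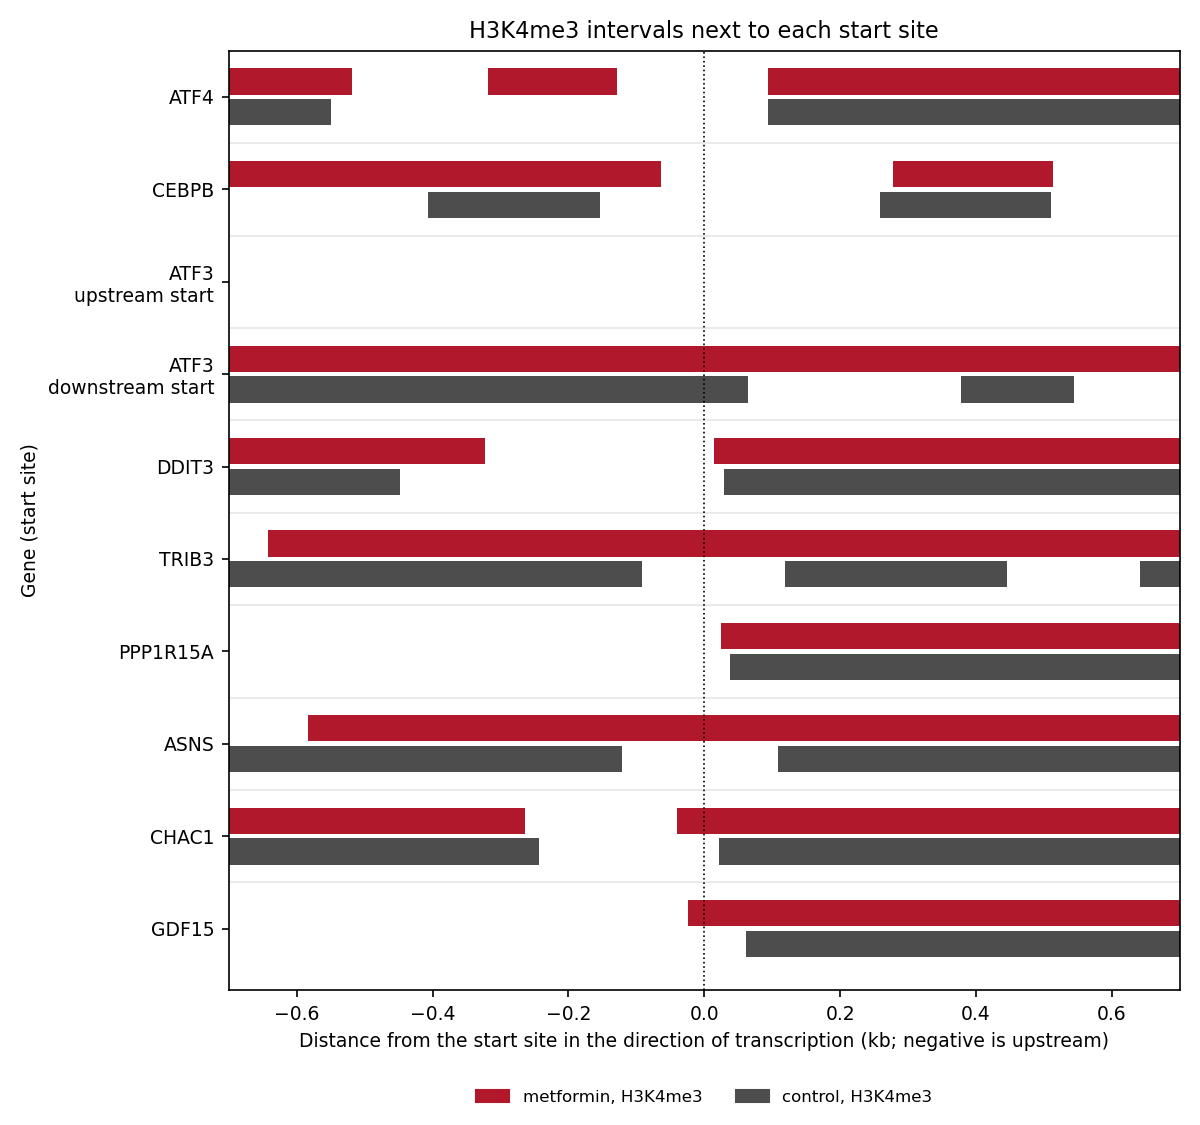
H3K4me3 intervals within 700 bp of each start site (x axis, kb from the start in the direction of transcription; each bar is 1 interval cut at the plot's edge; metformin above control). In metformin cells 5 start sites lie inside an interval and in control cells 1 does. ATF4, DDIT3 and CEBPB keep a gap at the start in both.

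Most H3K4me3 intervals at the members had a partner in the other list. In metformin cells 24 of 37 had one (64.9%, exact Clopper-Pearson 95% interval 47.5 to 79.8, counting error only), against 67.3% over the whole metformin list. In control cells 25 of 28 did (89.3%, 71.8 to 97.7), against 77.3% of the control list. Several of these peaks lie at the same start site, such as 7 at CEBPB in metformin cells. Both 95% intervals treat them as independent, so they may be too narrow. The 13 metformin-only intervals were under 500 bp except for the 682 bp interval of TRIB3. Under 500 bp, 8 of 20 metformin and 9 of 12 control intervals had a partner (40.0% and 57.4% over the lists), and from 500 bp 16 of 17 metformin and 16 of 16 control intervals did (92.9% and 96.3% over the lists). Of the covered length, between 76.6% (TRIB3) and 100% (GDF15) of control sequence was also covered in metformin cells, and between 41.9% (TRIB3) and 94.5% (PPP1R15A) of metformin sequence in control cells. These shares of covered length were not measured over the background windows.

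The surroundings of each member also held more H3K4me3 in the metformin list, as did the list as a whole (55.2 Mb against 49.4 Mb in control cells). Over 500 kb to each side, without the 10 kb window itself, the ratio ran from 1.09 at CEBPB to 1.37 at GDF15. TRIB3 (1.83 against 1.12 around it) and CHAC1 (1.46 against 1.18) exceeded their surroundings, and CEBPB was level with its own (1.10 against 1.09). The other 6 lay below theirs, such as GDF15 (1.27 against 1.37), ATF4 (1.00 against 1.27) and PPP1R15A (0.96 against 1.31). How often the background windows lie above or below their own surroundings was not measured, so these counts only describe these genes.

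**Figure D4:**
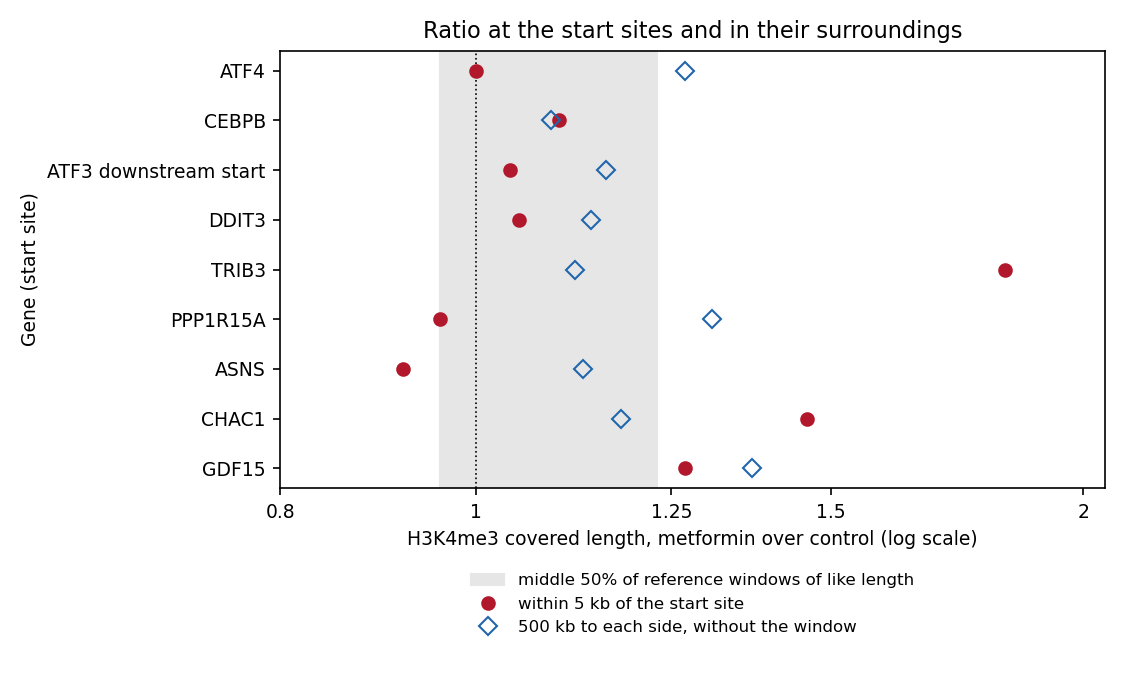
Ratio of H3K4me3 covered length, metformin over control (log axis), within 5 kb of each start site (filled circles) and over 500 kb to each side without that window (open diamonds). The grey band is the middle 50% of the windows of like covered length, 0.96 to 1.23. TRIB3, CHAC1 and GDF15 lie to the right of the band, at 1.83, 1.46 and 1.27, and ASNS to its left at 0.92.

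H3K27me3 was found within 5 kb of 1 of 10 start sites in each list, the downstream ATF3 start, against 11.0% of all windows in metformin and 9.16% in control cells, and 7.72% in both. All of it lay upstream. Metformin cells had intervals of 1068 bp (value 1.90, top 15.0% of its list) and 877 bp (1.43, top 59.8%). Control cells had intervals of 859 bp (1.53, top 48.1%) and 1185 bp (2.35, top 2.79%). In both lists 99.6% of the values lie under 3, so a high rank there still goes with a low value. One of the 2 intervals in each list overlapped the other condition, by 367 bp. The edge nearest the start lay 1481 bp upstream in metformin and 1991 bp upstream in control cells.

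At ATF3 both marks were called on the same sequence in each condition. In metformin cells the overlap was 437 bp, made up of a whole short H3K4me3 interval of 267 bp and 170 bp of the interval that spans the start. In control cells it was 538 bp, made up of a whole interval of 438 bp and 100 bp of one of 310 bp. These are 2 of 37 metformin and 2 of 28 control H3K4me3 intervals of the members, where 4.55% and 2.78% of the lists overlapped H3K27me3. Whether both marks sat on the same chromatin fibres was not tested.

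At the other 9 sites the nearest H3K27me3 lay outside the 5 kb window. It lay 13.8 kb away in metformin and 14.6 kb in control cells for CEBPB, the closest, 114 kb and 121 kb away for TRIB3, and 145 kb and 146 kb away for GDF15. For PPP1R15A the distances were 549 kb in metformin and 112 kb in control cells, the control one set by a single interval. ATF4, DDIT3, ASNS, CHAC1 and the upstream ATF3 start lay between 19.5 and 30.6 kb from H3K27me3 in metformin cells, and between 20.9 and 37.4 kb in control cells. Such distances were not measured for the background windows, so whether these are long or short is not known.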

How the data were processed

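The 4 peak lists of H1299 cells, 1 library per mark and condition, were used. The submitters' processing notes name Trimmomatic 0.38, Bowtie, MACS2 and the build hg19 (GRCh37). Neither their options nor the background library is given in the sources used, and the 2 inputs were not analysed here. The deposited value of each interval was read as a −log10 q, since the smallest are 1.31 for H3K4me3 and 1.00 to 1.01 for H3K27me3, close to q = 0.05 and q = 0.1. Values only rank intervals within a list. Depth is unknown.

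Lines with the same interval were joined and carry their highest value. Start sites on hg19 come with the choice of genes, and strands from RefSeq. The genes, motifs and lists were chosen with earlier results of these data known, and all 9 genes are named. An interval was shared if at least 1 bp overlapped the other list. Covered length, gaps and promoter motifs were computed in Python 3.11.15 with scipy 1.17.1, numpy 2.4.6 and pandas 2.3.3; matplotlib 3.10.9 drew the plots. The code was tested on simulated intervals and returned 100% of the 400 covered lengths and 100% of the 150 overlap calls. Alternatives were other windows, stricter values, a 50% overlap, merging within 1 kb and lists of equal length. No test between conditions was made.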

Additional observations from a re-analysis of the deposited data

How the results depend on the processing

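No paired analysis was possible because each mark had a single library in each condition, so that no replicate could be left out either. The number of starts inside an H3K4me3 interval (5 in metformin, 1 in control) became 8 and 7 with intervals within 1 kb merged, since merging closes most gaps. Merging also gave partners to 90.9% of metformin and 100% of control intervals (64.9% and 89.3% unmerged). The median ratio of covered length, 1.05, was 1.09 within 2 kb, 1.07 within 10 kb, 1.07 at values of 5 or more and 1.05 at equal list length. Of the ratios of 1.2 or more (3 of 9), CHAC1 (1.23) alone was kept within 2 kb, where TRIB3 was at 1.05 and GDF15 at 1.04 and the downstream ATF3 start passed instead (1.28). At values of 5 or more TRIB3 (3.65) and CHAC1 (1.31) passed of 8 sites, and GDF15 had no control interval. Within 10 kb TRIB3, CHAC1 and GDF15 were at 1.86, 1.43 and 1.27, and at equal list length at 1.83, 1.40 and 1.27. The count of ratios of 1/1.2 or less, 0 of 9, was 1 within 10 kb and 1 at values of 5 or more, both ASNS (0.75 and 0.70). The counts of starts with either mark stayed within 1.5 times under the settings tried. Starts with more coverage in metformin numbered 8 of 10, with the upstream ATF3 start counted although it was marked in metformin alone. The count was 10 of 10 within 2 kb, 9 within 10 kb, 6 at values of 5 or more and 7 at equal list length. Background shares were taken only for the 5 kb window with all intervals, so these other counts have none beside them. Low values limit the H3K27me3 calls and the short H3K4me3 intervals, and depth is unknown.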

Other observations

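Between 5 and 10 kb from the start sites, H3K4me3 differed at several members. These intervals were chosen after their values were seen. Upstream of the upstream ATF3 start, both lists held a pair of intervals: 945 bp (value 10.2) and 1056 bp (9.04) in metformin cells, and 263 bp (5.59) and 578 bp (7.78) in control cells, at 5.13 to 7.33 kb and 5.58 to 6.65 kb before it. ASNS had 3 control-only intervals 6.37 to 9.03 kb downstream of the start, of 271, 304 and 337 bp with values of 4.44, 3.29 and 2.30, and no metformin interval in that range. DDIT3 had 2 short metformin-only intervals 6.11 to 7.16 kb upstream, with values of 3.90 and 1.65. ATF4 had a wide interval in both lists, from 9.65 kb downstream in metformin (2518 bp, value 25.0) and 9.28 kb in control cells (2872 bp, 17.5). Short intervals of 1 list only also lay near ATF4 (metformin, 412 bp, value 3.64), PPP1R15A (metformin, 227 bp, 1.84) and CEBPB (control, 269 bp, 2.95). Over the whole lists, 40.0% of metformin and 57.4% of control intervals under 500 bp had a partner, so many short intervals are found in 1 list only. The control list also held an interval of 2741 bp (value 18.8) whose edge lay 9.94 kb upstream of CHAC1. It was overlapped by metformin intervals of 774 bp (value 36.3) and 689 bp (5.98) at 10.6 and 11.8 kb, just outside this range. H3K27me3 beyond 5 kb was found upstream of the downstream ATF3 start, with 1 interval of 651 bp in metformin cells and 2 of 172 and 161 bp in control cells.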
